A study of Bos taurus with 31 samples.

Results

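The genes described here are 9 enzymes of glycolysis and of the pentose phosphate pathway (*GPI*, *PFKL*, *TPI1*, *PGK1*, *ENO1*, *PKLR*, *PGD*, *TKT* and *TALDO1*) in the liver of dairy cows. They were chosen by symbol from a named list, and 9 of 9 were found, each as 1 row, among the 24616 genes of the raw count table. Liver biopsies of 31 cows (*Bos taurus*) were sequenced, with 1 library per cow. The cows were fed a ration with glyphosate residues (GLY) or a control ration (CON), and within each of these a high (HC) or a low (LC) concentrate feed proportion (CFP). This gave CONHC with 8 cows, CONLC with 8, GLYHC with 8 and GLYLC with 7. All cows were lactating German Holsteins of 1 trial, the GLY ration carried residues of a glyphosate formulation with its co-formulants, and a biopsy samples all cell types under the needle, so that fewer cells of a type and less RNA per cell cannot be told apart.

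Glycolysis splits glucose phosphates into pyruvate. *GPI* interconverts glucose 6-phosphate and fructose 6-phosphate, *PFKL* encodes the liver subunit of phosphofructokinase, the committed step, *TPI1* interconverts the triose phosphates, *PGK1* and *ENO1* act in the lower part of the pathway, and *PKLR* encodes the pyruvate kinase of liver and red cells, which makes the last step irreversible. The pentose phosphate pathway starts from the same glucose 6-phosphate. Its oxidative arm, with *PGD* as the enzyme that makes ribulose 5-phosphate, yields NADPH for lipid synthesis and for the defence against oxidants, and *TKT* and *TALDO1* of its non-oxidative arm return sugars to glycolysis. In ruminants little glucose is absorbed from the gut, and the liver mainly makes glucose, so that the shared reversible enzymes also serve gluconeogenesis while *PKLR* opposes it.

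The libraries held 11675775 to 36675542 assigned reads, and the members drew from 17398 reads (*PFKL*) to 263982 reads (*ENO1*) over all cows, so that counting error was small beside the differences between cows. Hepatocyte markers were present in each library, with at least 48065 normalized reads of *TTR* and 2664 of *APOA1*, which was highest in GLYLC cow 912 (14204). The mean of the 10 centred log2 levels of hepatocyte markers ranged from 0.012 to 0.19 in CONHC and from -0.26 to 0.17 in CONLC. It ranged from -0.08 to 0.14 in GLYHC and from -0.52 to 0.14 in GLYLC. GLYLC cow 912 and CONLC cow 260 were the 2 cows farthest from its median. In GLYLC cow 912, 6 of 6 tested intestinal epithelium markers reached their highest level, with 4094 normalized reads of *FABP2* against a median of 0 over all cows. In 4 other libraries (CONLC cow 103, CONLC cow 166, CONHC cow 123 and GLYHC cow 127) the summed reads of 10 skeletal muscle markers lay between 32083 and 63844, against 41.6 to 8795 in the other 27. Skeletal muscle and intestine are not expected in liver, and part of the results below is therefore given also without these libraries. Of the 8 markers of stellate cells and fibroblasts, 7 were lower in HC than in LC cows at an unadjusted p under 0.05, and of the 10 macrophage markers 6 were higher. Of all genes, 13.7% had such a p in either direction. In edgeR *DCN* (log2 fold change -0.50, adjusted p = 0.0275) and *CD68* (0.61, adjusted p = 0.0948) were called among them, where 1.45% of all genes were called. These counts include all libraries. The mean of the 8 centred log2 levels of the first list ranged from -0.36 to 0.41 in CONHC, from -0.78 to 2.92 in CONLC, from -0.83 to 0.00374 in GLYHC and from -0.19 to 0.93 in GLYLC, and for macrophages it ranged from -0.88 to 1.02, from -0.61 to 0.18, from -0.56 to 0.80 and from -0.64 to 0.60. For the first list the highest CONLC value was that of cow 103, a library with muscle reads, and the highest GLYLC value that of cow 912. None of the 8 stellate or 10 macrophage markers had a count of 0 in any cow. The part of these cells in the differences described below was not tested.

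Values are normalized read counts, that is, counts scaled by library size and TMM factors to a common depth, given as mean ± SD over cows. They are compared between groups for the same gene and not between genes, since transcript lengths were not used. Differences were tested over 15916 genes with edgeR's quasi-likelihood test. A gene is called here where its unadjusted p was below 0.05 and its p adjusted by Benjamini-Hochberg was below 0.1. Log2 fold changes are given ± standard error.

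The spread between cows differed widely among the 9 enzymes. *TKT* varied 6.80-fold between its lowest cow (1269 normalized reads, GLYLC cow 912) and its highest (8633, CONLC cow 260). Its SD of log2 CPM, a depth-scaled count on the log2 scale, within groups was 0.66, larger than in 95.9% of the 10602 genes with a mean log2 CPM above 1, where the median was 0.25. *GPI* came next with 0.33, larger than in 70.6% of genes. *PFKL* was the steadiest, with 0.21 and a 1.93-fold range over all cows, and *PGK1* had 0.23. In *GPI*, *TPI1*, *PKLR* and *TKT*, GLYLC cow 912 was the lowest of all 31 cows.

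**Figure D1:**
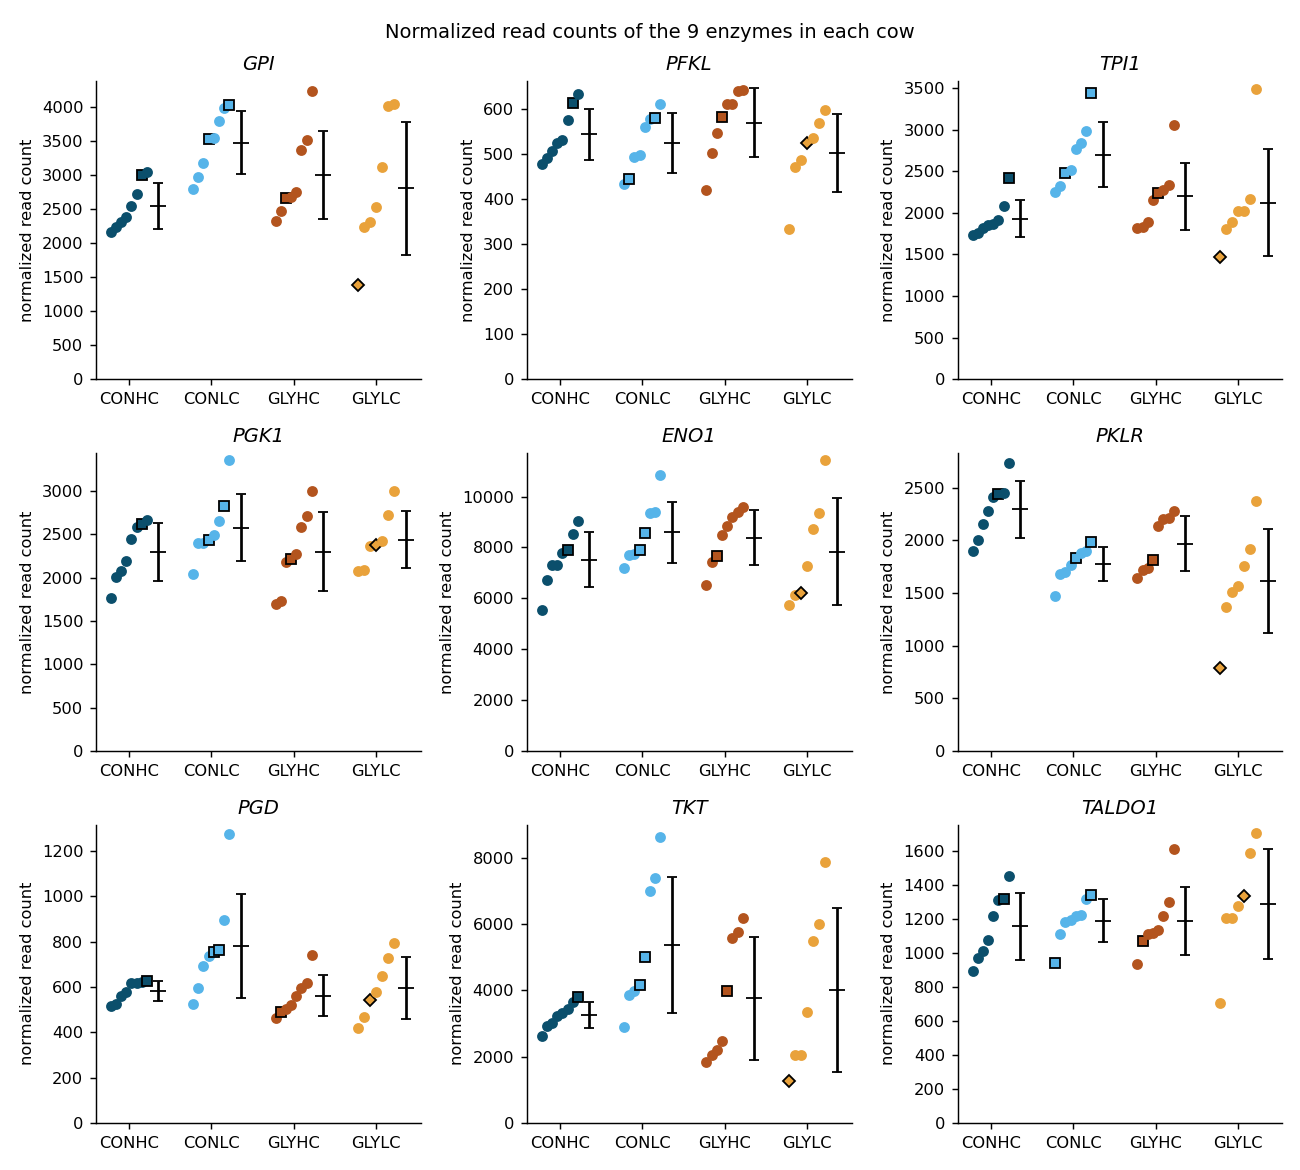
Normalized read counts (vertical axes) of the 9 enzymes in each of the 31 cows, sorted within the feeding group. Bars show mean ± SD, squares the 4 libraries with muscle reads and the diamond GLYLC cow 912. *PKLR* was high in CONHC (1900 to 2732) and mostly lower in CONLC (1475 to 1985), while *TPI1* and *GPI* lay the other way, and *TKT* spread widely in 3 groups but not in CONHC (2624 to 3815).

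*PKLR* was the one enzyme with a called difference. In CONHC its normalized reads ran from 1900 through a median of 2345 to 2732, and in CONLC from 1475 through 1799 to 1985. Of the 8 CONHC cows, 7 lay above each CONLC cow, so the groups overlapped in a single CONHC cow. In GLYHC the values ran from 1646 through 1974 to 2280, and in GLYLC from 792 through 1563 to 2377. Each of the 8 GLYHC cows lay above the GLYLC median, but GLYLC cow 544 was higher than all of them. Over all cows, with treatment as a covariate, *PKLR* rose in HC against LC with a log2 fold change of 0.33 ± 0.09 (edgeR adjusted p = 0.0948, unadjusted p = 0.00117). That was 1 of the 9 members called, where 1.45% of all tested genes were called in either direction and 0.679% as higher. An unadjusted p under 0.05 was found for 3 of 9 members, *PKLR*, *PGD* and *TPI1* (-0.23 ± 0.10), and for 13.7% of all genes. Without GLYLC cow 912 it was found for 5 of 9 (11.9% of all genes), with *GPI* (-0.25) and *TKT* (-0.51) added. Without the 4 libraries with muscle reads it was found for 2 of 9 (11.9% of all genes), *PKLR* and *PGD*. The adjusted p of *PKLR* was close to its limit of 0.1. It was 0.0331 with DESeq2 on all cows, which called 2.73% of genes, and 0.180 in edgeR without the 4 libraries with muscle reads, where the log2 fold change was 0.35. Without GLYLC cow 912, the lowest of all cows for *PKLR*, the log2 fold change was 0.28 and the adjusted p 0.0947, and leaving out 1 cow at a time kept the call in 9 of 31 cases. *PKLR* had a similar estimate in both treatments, 0.37 ± 0.13 between CONHC and CONLC (adjusted p = 0.659, unadjusted p = 0.00799) and 0.29 ± 0.14 between GLYHC and GLYLC (adjusted p = 0.373, unadjusted p = 0.041), and their difference was not beyond its error (interaction -0.08 ± 0.19, adjusted p = 0.999). Without cow 912 the GLY estimate was 0.17.

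*TPI1* and *GPI* lay the other way in CON cows. For *TPI1*, CONHC ran from 1732 through a median of 1858 to 2422 normalized reads and CONLC from 2251 through 2644 to 3443. The highest CONHC value was that of cow 123, a library with muscle reads, and the other 7 CONHC cows lay below each CONLC cow. The highest CONLC value was that of cow 166, also a library with muscle reads. The log2 fold change of *TPI1* between CONHC and CONLC was -0.48 ± 0.13, with an unadjusted p of 0.000721 that ranked 30 among all genes and an edgeR adjusted p of 0.383. Without the 4 libraries with muscle reads this log2 fold change was -0.49 (edgeR adjusted p = 0.693). For *GPI*, CONHC ran from 2168 through 2458 to 3040 and CONLC from 2791 through 3535 to 4021, with 6 of the 8 CONHC cows below each CONLC cow. Its log2 fold change was -0.45 ± 0.16 (edgeR adjusted p = 0.647, unadjusted p = 0.00736). In GLY cows neither gene separated the diets. *TPI1* ran from 1820 through 2198 to 3053 in GLYHC and from 1467 through 2017 to 3484 in GLYLC, and its log2 fold change was 0.05 ± 0.13 (adjusted p = 0.921). *GPI* ran from 2327 through 2711 to 4236 in GLYHC and from 1391 through 2526 to 4039 in GLYLC, with a log2 fold change of 0.10 ± 0.16 (adjusted p = 0.854). The difference between the treatments in the effect of CFP was 0.54 ± 0.19 for *TPI1* and 0.55 ± 0.22 for *GPI* on the log2 scale. These had unadjusted p of 0.00701 and 0.0209 and adjusted p of 0.999 for both, in an interaction that called 0 of 15916 genes and had 4.21% of genes with an unadjusted p under 0.05. DESeq2 on all cows called 1 gene there, and no member. GLYLC cow 912 was the lowest of all cows for both genes. Without it the estimates between GLYHC and GLYLC were -0.03 for *TPI1* and -0.02 for *GPI*. The differences between the treatments were then 0.46 and 0.42 (edgeR unadjusted p = 0.0156 and 0.0363, 3.47% of all genes under 0.05), and neither was called.

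*PGK1* and *ENO1* of the lower pathway moved little with the ration. *PGK1* averaged 2296 ± 334 in CONHC, 2579 ± 388 in CONLC, 2302 ± 453 in GLYHC and 2439 ± 330 in GLYLC. *ENO1* averaged 7514 ± 1078, 8591 ± 1206, 8391 ± 1079 and 7834 ± 2090 in the same order. Their log2 fold changes in HC against LC were -0.13 ± 0.08 and -0.05 ± 0.09, with edgeR adjusted p of 0.516 and 0.870. *PFKL*, the phosphofructokinase subunit, averaged 543 ± 57.0 in CONHC, 524 ± 66.1 in CONLC, 569 ± 76.8 in GLYHC and 503 ± 86.6 in GLYLC. Its log2 fold change in HC against LC was 0.11 ± 0.07 (edgeR adjusted p = 0.523), so that *PFKL* and *PKLR* were the 2 of 9 members with an estimate above 0.

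In the pentose phosphate pathway, *PGD* was tightly grouped in CONHC, from 516 through a median of 597 to 626 normalized reads. CONLC ran from 524 through 746 to 1275, GLYHC from 463 through 541 to 740 and GLYLC from 419 through 579 to 795. The highest value belonged to CONLC cow 260, which was also the highest cow for *TKT* and *PGK1*. *PGD* had a log2 fold change of -0.42 ± 0.14 between CONHC and CONLC (edgeR adjusted p = 0.600, unadjusted p = 0.00486), of -0.26 ± 0.10 in HC against LC over all cows (adjusted p = 0.238) and of -0.39 ± 0.14 between GLYLC and CONLC (adjusted p = 0.657). It was the only member with an unadjusted p under 0.05 in GLY against CON over all cows (edgeR, -0.21 ± 0.10, unadjusted p = 0.0448), and it was not called there. The edgeR unadjusted p was 0.0763 without GLYLC cow 912 and 0.102 without the 4 libraries with muscle reads. Without CONLC cow 260 the estimate in GLY against CON was -0.14. The estimates of *PGD* without this cow were -0.28 between CONHC and CONLC, -0.19 in HC against LC and -0.24 between GLYLC and CONLC.

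*TKT* showed the widest groups. CONHC ran from 2624 through 3268 to 3815 normalized reads, whereas CONLC ran from 2886 through 4579 to 8633. GLYHC cows fell apart into 4 between 1826 and 2466, below each CONHC cow, and 4 between 3977 and 6197, above each CONHC cow. GLYLC ran from 1269 through 3360 to 7879. The mean of CONLC (5364 ± 2049) was above that of CONHC (3249 ± 393), but CONLC cow 169 lay within the range of CONHC, and the log2 fold change of -0.72 ± 0.31 had an edgeR adjusted p of 0.775 (unadjusted p = 0.026). Without CONLC cow 260 this log2 fold change was -0.59. *TALDO1* averaged 1156 ± 197 in CONHC, 1190 ± 126 in CONLC, 1188 ± 202 in GLYHC and 1288 ± 321 in GLYLC, and its log2 fold change in HC against LC was -0.08 ± 0.09 (adjusted p = 0.774). The sugar-returning enzymes *TKT* and *TALDO1* thus differed in spread, with within-group SDs of 0.66 and 0.27 on the log2 scale.

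Counted over the 9 members, the comparison of CONHC with CONLC held the most low p-values. An unadjusted p under 0.05 was found for 5 of 9 members, where 5.96% of all genes had one. Of these, 4 were lower in CONHC (*TPI1*, *PGD*, *GPI* and *TKT*; 3.25% of all genes) and 1 was higher (*PKLR*; 2.71% of all genes). The count was 5 as well without the 4 libraries with muscle reads and without GLYLC cow 912, and 4 or 5 with any 1 cow left out. The authors had already reported *GPI*, *TPI1*, *PKLR* and *TKT* as responsive to CFP in these same libraries. In their qRT-PCR of CONHC against CONLC, *TPI1* and *TKT* kept the direction, but neither difference was significant. The members were chosen with earlier results known, so the excess over all genes is not independent support. The median log2 fold change of the members was -0.19 and that of all genes -0.01. No member separated the 2 groups without overlap, as 0.0188% of all genes did here, 0.0942% between GLYHC and GLYLC and 0.00628% in each of the comparisons of GLY with CON at 1 CFP. In edgeR 0 of 9 members and 0 of all genes were called, with adjusted p from 0.383 for *TPI1*. DESeq2 on only these 2 groups called 4 of 9 members, *TPI1* (adjusted p = 0.000775), *PKLR* (0.00324), *GPI* (0.00326) and *TKT* (0.0208), where it called 0.539% of genes, and DESeq2 on all cows called 0 of 9. Over the other settings tried the adjusted p reached 0.693 for *TPI1*, 0.909 for *PKLR*, 0.945 for *GPI* and 0.979 for *TKT*. In GLYHC against GLYLC, 0 of 9 members were called (0.201% of all genes) and 1 of 9 had an unadjusted p under 0.05 (12.5% of all genes), which was *PKLR*, and 0 of 9 had one without cow 912.

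**Figure D2:**
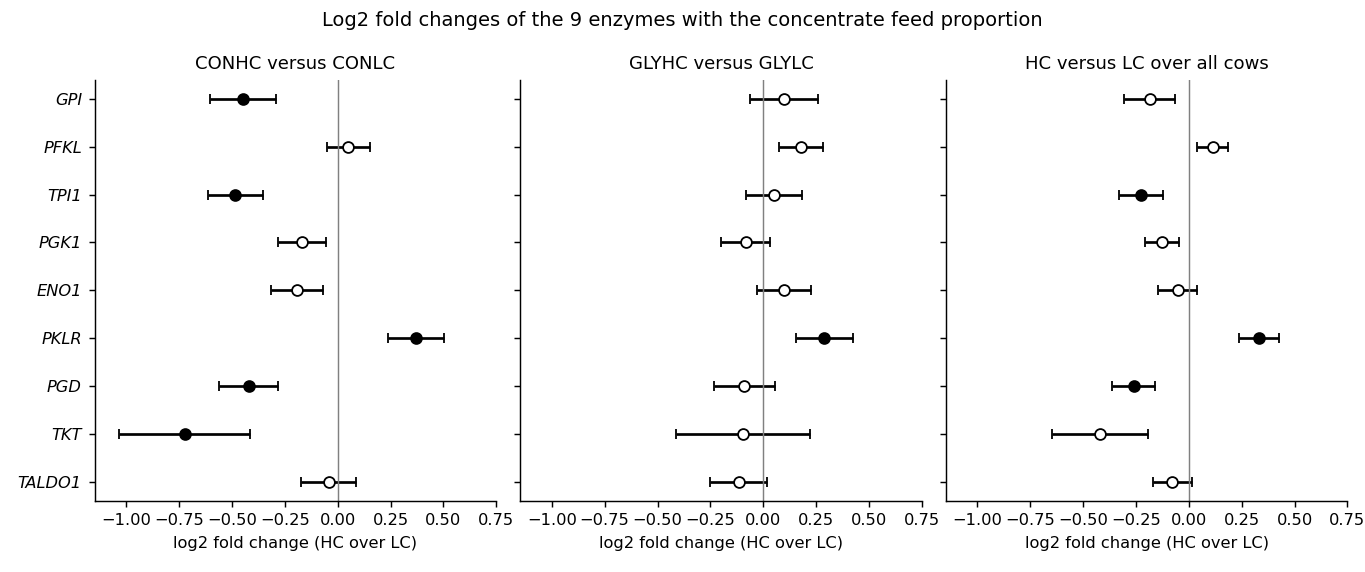
Log2 fold changes of the 9 enzymes in HC over LC cows (horizontal axes) within CON cows, within GLY cows and over all cows with treatment as a covariate. Bars are ± 1 standard error from edgeR, and filled points have an unadjusted p under 0.05. Filled points number 5, 1 and 3, and *PKLR* is filled and above 0 in each panel.

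The GLY ration was compared within each CFP. Between GLYHC and CONHC 0 of 9 members had an unadjusted p under 0.05 (2.92% of all genes had one), and log2 fold changes lay between -0.22 (*PKLR*) and 0.23 (*GPI*). In the fit without GLYLC cow 912, 1 of 9 had one (3.52% of all genes). It was *PKLR* with -0.22 ± 0.10 (edgeR unadjusted p = 0.0312), which was not called. Between GLYLC and CONLC 0 of 9 were called (0.0628% of all genes) and 2 of 9 had an unadjusted p under 0.05 (5.65% of all genes), *PGD* as given above and *TPI1* with -0.35 ± 0.13 (edgeR adjusted p = 0.722, unadjusted p = 0.014). Of the 7 GLYLC cows, 6 lay below each CONLC cow for *TPI1*, and GLYLC cow 209 lay above all of them. Without cow 209 the log2 fold change of *TPI1* was -0.51 and its adjusted p 0.0574, in a fit that called 0.258% of all genes, and without cow 912 it was -0.27 with an unadjusted p above 0.05. Over all cows GLY against CON gave 0 of 9 called by edgeR or DESeq2 and 1 of 9 with an unadjusted p under 0.05 (3.92% of all genes). The latter was 0 of 9 without cow 912 (2.76% of all genes) and without the 4 libraries with muscle reads (3.98%). These comparisons share groups with those on CFP and are not independent of them.

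The other enzymes of both pathways did not pass edgeR's test in any comparison. Of 20 other glycolysis enzymes, 0 were called in any of the 7 comparisons by edgeR, and in HC against LC 1 had an unadjusted p under 0.05, *HK3*, a hexokinase of white blood cells (0.47 ± 0.22, adjusted p = 0.344). Of 11 tested other pentose phosphate enzymes 0 were called. Between CONHC and CONLC, 0 of the 20 and 1 of the 11 had an unadjusted p under 0.05. *GAPDH*, the step between those of *TPI1* and *PGK1*, had a log2 fold change of -0.04 and *PGAM1*, the step before *ENO1*, one of -0.02 (edgeR unadjusted p = 0.671 and 0.736). *ME1*, the malic enzyme that is another source of NADPH, was the single called gene among the 11 of the lipogenesis list (HC against LC, -0.71 ± 0.19, edgeR adjusted p = 0.0768). It averaged 17.4 normalized reads in CONHC, 33.7 in CONLC, 16.1 in GLYHC and 22.7 in GLYLC. *ACACA*, acetyl-CoA carboxylase of fatty acid synthesis, had -0.47 ± 0.17 (adjusted p = 0.182). Among the 17 regulators of glycolytic flux, *PFKFB3*, which makes the activator of phosphofructokinase, had 0.45 ± 0.15 (adjusted p = 0.159). In glycogen metabolism, *PYGL*, liver glycogen phosphorylase, had 0.16 ± 0.08 (adjusted p = 0.357). Of 10 tested rows for glucose and lactate transporters, 0 had an unadjusted p under 0.05 in HC against LC.

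Other glycolysis enzymes that are typical of muscle moved with the muscle reads. In the 4 libraries with muscle reads *ALDOA*, the muscle aldolase, had 3408 to 5639 normalized reads against 1030 to 2513 in the other 27, *PKM*, the other pyruvate kinase gene, 983 to 1415 against 186 to 655, and *ENO3*, the muscle enolase, 1073 to 1965 against 81.7 to 394. *PFKM* had 535 to 988 against 151 to 423 and *PGAM2* 168 to 396 against 0 to 63.4. The 4 libraries had been set apart by muscle markers, and the share of all genes without overlap in this split is not given here. The ranges of the 9 members overlapped, as with *PKLR* at 1811 to 2441 against 792 to 2732 and *ENO1* at 7660 to 8559 against 5542 to 11423. For *TPI1* the 4 libraries held 2235 to 3443 and the others 1467 to 3484, with medians of 2448 and 2019. No correlation of a member with the muscle score had an adjusted p under 0.1, and r lay between -0.20 and 0.16.

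**Figure D3:**
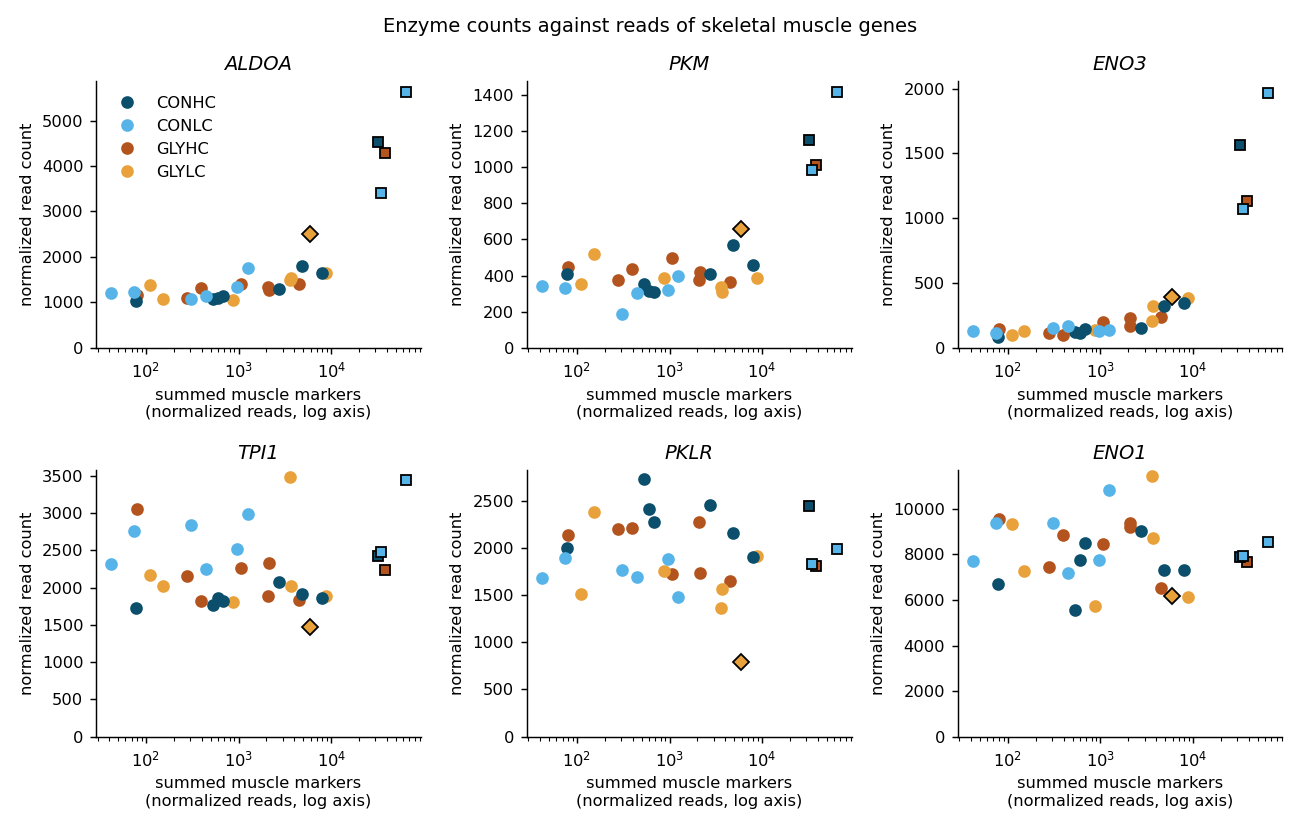
Normalized read counts of 6 enzymes (vertical axes) against the summed normalized reads of 10 skeletal muscle markers (horizontal log axes) in 31 cows, coloured by group. Squares are the 4 libraries with over 10000 muscle reads and the diamond is GLYLC cow 912. *ALDOA*, *PKM* and *ENO3* are highest in the squares, while *TPI1*, *PKLR* and *ENO1* of the squares lie within the range of the other cows.

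Across the 31 cows the enzymes varied together in part. The 36 pairs of members had a median Pearson r of log2 CPM of 0.31, between -0.22 and 0.80, with 30 pairs above 0 and 15 above 0.5. For comparison, the median r of a member with the 10601 other genes above a mean log2 CPM of 1 lay within 0.02 of 0. The top 5% of those genes started at r between 0.42 (*PGD*) and 0.60 (*PFKL* and *TALDO1*), depending on the member. Centred on the group means, the median over pairs was 0.38. Within groups it was 0.45 in CONHC, 0.25 in CONLC, 0.37 in GLYHC and 0.46 in GLYLC. Genes of 1 library share its depth and tissue makeup. Each permutation test below used 100000 resamples and was two-sided, with p adjusted over the 36 pairs, and 1e-05 is the smallest unadjusted p that it can give.

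The closest pair was *GPI* and *TKT*, the branch point enzyme and a transketolase, with r = 0.80 and Spearman's rho = 0.78 (permutation p = 1e-05, adjusted 9e-05). Without the 2 cows farthest from the median r was 0.75, and centred on the groups 0.78. Within groups it was 0.87 in GLYHC and 0.96 in GLYLC, but 0.42 in CONHC and 0.08 in CONLC, where *GPI* also had r of only 0.02 with *PGD* and 0.13 with *ENO1*. Of the genes above the expression limit, 0.0283% had a correlation with *GPI* as high as that of *TKT*. *TKT* and *PGD* had r = 0.77 and rho = 0.79 (permutation p = 1e-05, adjusted 9e-05), 0.79 without the 2 farthest cows and 0.73 centred, and r lay between 0.56 and 0.91 in the 4 groups. *GPI* and *TPI1* had r = 0.71 and rho = 0.68 (permutation p = 1e-05, adjusted 9e-05), 0.62 without the 2 farthest cows and 0.59 centred. Within groups their r was 0.40 in CONHC, 0.26 in CONLC, 0.32 in GLYHC and 0.83 in GLYLC. *PGD* and *ENO1* had r = 0.70 and rho = 0.69 (permutation p = 1e-05, adjusted 9e-05), and 0.67 without those 2 cows. Thus *GPI*, *TKT*, *TPI1*, *PGD* and *ENO1* formed 10 pairs with r from 0.56 to 0.80 over all cows. Within single groups r of these pairs was as low as 0.02 (*GPI* with *PGD* in CONLC) and 0.05 (*TPI1* with *TKT* in GLYHC). *PGK1* was close to *PGD* (r = 0.66), *ENO1* (0.62) and *TPI1* (0.60), and less so to *TKT* (0.46) and *GPI* (0.36).

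*PFKL* and *TALDO1* had lower r with this set over all cows than with each other. Their own r was 0.64 and rho 0.47 (permutation p = 0.00015, adjusted 0.000491). Without GLYLC cows 102 and 209, the lowest and the highest cow for *TALDO1*, r was 0.52, and it was 0.73 centred on the groups and 0.26 within CONLC. Of all genes above the expression limit, 3.69% had a correlation with *TALDO1* as high as that of *PFKL*. With *GPI*, *TKT*, *TPI1*, *PGD* and *PGK1* these genes had r between -0.01 and 0.25 over all cows, and between -0.52 (*GPI* with *TALDO1* in GLYHC) and 0.66 (*PGD* with *PFKL* in CONHC) within groups. *ENO1* had r = 0.50 for *TALDO1* and 0.50 for *PFKL* (permutation p = 0.00426 and 0.00474, adjusted 0.0102 and 0.0107), though without the 2 farthest cows the first fell to 0.28. Of all genes, 9.33% had a correlation with *TALDO1* as high as that of *ENO1*, and 9.21% had one with *PFKL* as high.

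*PKLR*, the liver pyruvate kinase, had no pair with an adjusted p under 0.1 over all cows. Its 8 pairs had r from -0.22 (*PGK1* and *TALDO1*) to 0.24 (*GPI*), with a median of -0.05, and rho was below 0 in all 8. The pooled value for *GPI* was 0.24 with GLYLC cow 912, in which both were lowest, and -0.23 without it. Centred on the group means, with cow 912 included, *PKLR* had r = 0.49 with *GPI* and 0.36 with *TKT*. Its r with *GPI* was 0.24 in CONHC, 0.68 in CONLC, 0.53 in GLYHC and, with cow 912, 0.50 in GLYLC. With *TKT* it was 0.35, -0.31, 0.60 and 0.43. The centred and the GLYLC values were not computed without cow 912, so their sign without it is not known here. The median over the 8 pairs was 0.25 in CONHC and 0.31 in GLYHC, but -0.31 in CONLC and -0.06 in GLYLC. The 28 pairs without *PKLR* had a median r of 0.53 and 27 were above 0. This split was made after the values were seen.

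**Figure D4:**
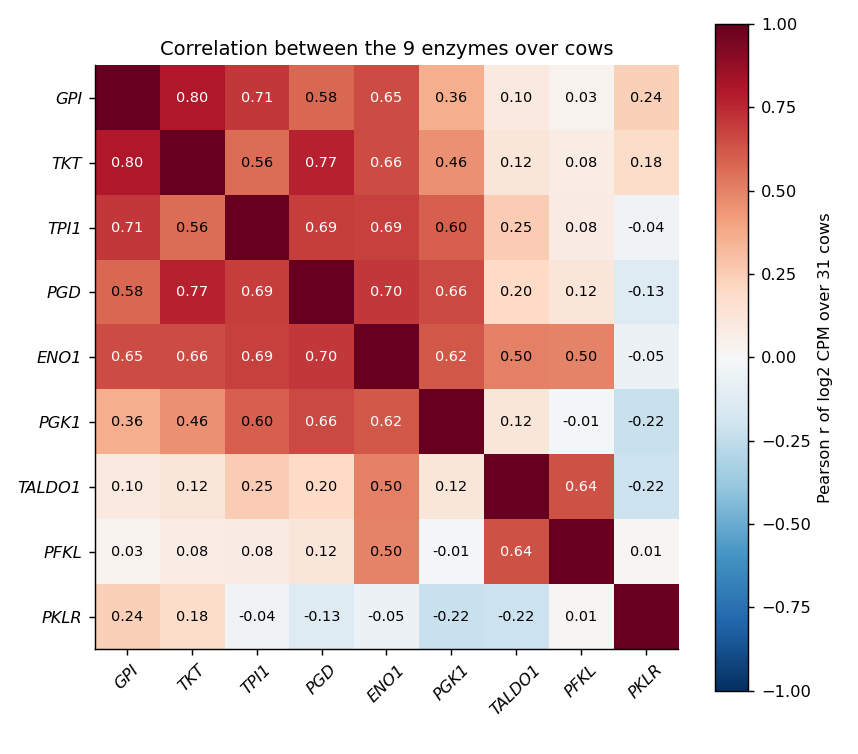
Pearson r of log2 CPM over the 31 cows for each pair of the 9 enzymes, in colour and as printed values. *GPI*, *TKT*, *TPI1*, *PGD*, *ENO1* and *PGK1* form a block with r from 0.36 to 0.80, *TALDO1* and *PFKL* a pair with r = 0.64, and the row of *PKLR* stays between -0.22 and 0.24.

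**Figure D5:**
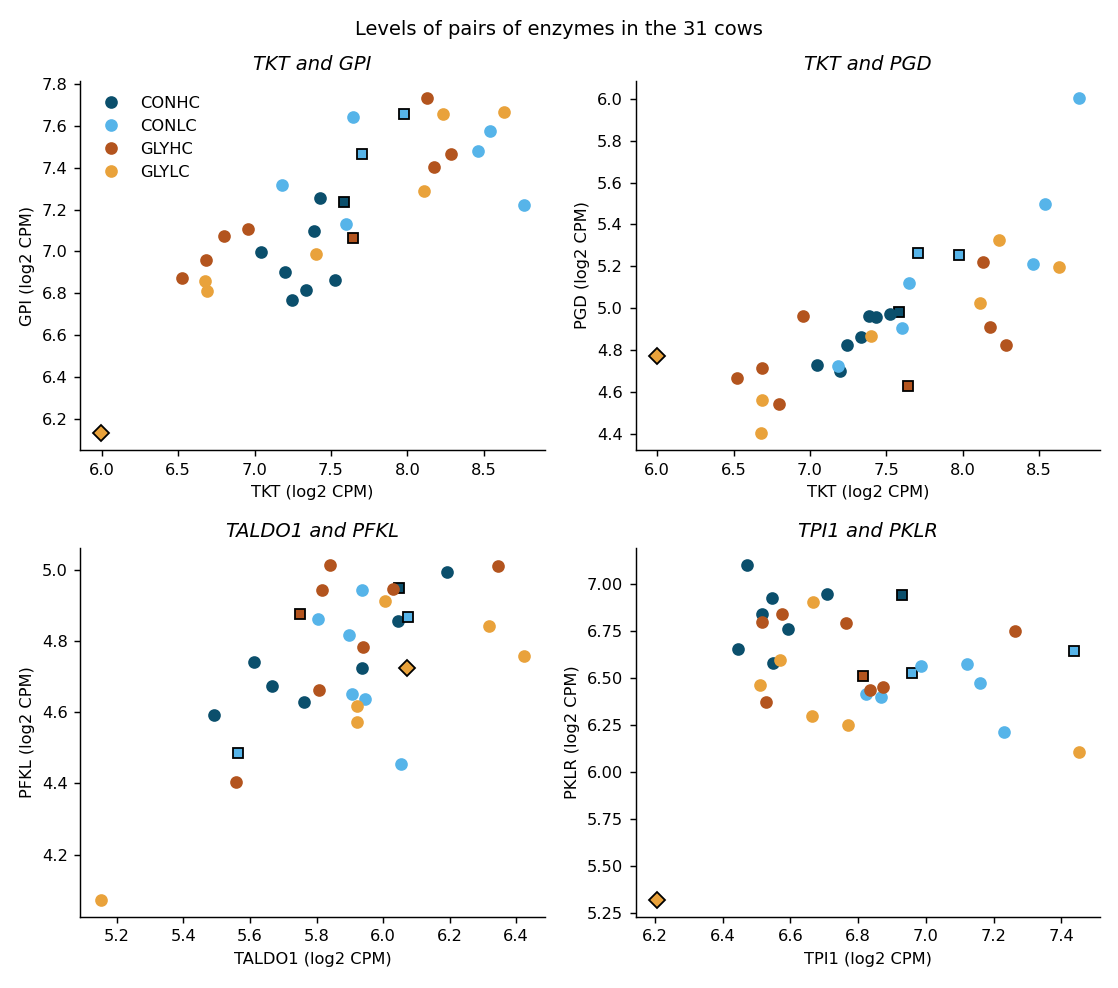
Log2 CPM of 4 pairs of enzymes in the 31 cows, coloured by group, with squares for the 4 libraries with muscle reads and a diamond for GLYLC cow 912. Over all cows *TKT* rises with *GPI* (r = 0.80, but 0.08 within CONLC) and with *PGD* (r = 0.77), *TALDO1* rises with *PFKL* (r = 0.64), and *TPI1* and *PKLR* have r = -0.04, which is -0.41 without GLYLC cow 912.

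Each member was also set against the 31 other tested enzymes of both pathways, in 279 relations with adjusted p over all of them. The triose and lower glycolysis enzymes were the closest. *GPI* was related to *GAPDH* (r = 0.69, rho = 0.58, permutation p = 2e-05, adjusted 0.00558) and *ENO1* to *GAPDH* (r = 0.67, rho = 0.62, adjusted permutation p = 0.00558) and to *PGAM1*, the mutase before it (r = 0.66, rho = 0.65, adjusted permutation p = 0.00558). Without the 2 farthest cows these became 0.52, 0.64 and 0.56. *DERA*, which cleaves deoxyribose phosphate into a triose phosphate, was related to 5 members, with r of 0.62 for *GPI*, 0.58 for *TKT*, 0.58 for *TPI1*, 0.57 for *ENO1* and 0.53 for *PGK1*. *TALDO1* was related to *PGLS*, the lactonase of the oxidative arm (r = 0.58, rho = 0.58, adjusted permutation p = 0.0234), and inversely to *PGM2* (r = -0.58, rho = -0.63, adjusted permutation p = 0.0203), to which *PFKL* was inversely related as well (r = -0.54). *PKLR* and *PGD* had 0 relations with an adjusted p under 0.1 among these 31 enzymes.

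The enzymes were further compared with the mean level of gene lists. In 135 relations of the 9 members with 15 scores, those with the 11 genes of NADPH-using lipogenesis and with 8 targets of NRF2, a factor of the oxidant response, stood out. The lipogenesis score was related to *TKT* (r = 0.74, rho = 0.69, permutation p = 1e-05, adjusted 0.00045), *GPI* (r = 0.73, rho = 0.64, permutation p = 1e-05, adjusted 0.00045), *PGD* (r = 0.66, rho = 0.76, adjusted permutation p = 0.00293) and *TPI1* (r = 0.55, rho = 0.44, adjusted permutation p = 0.018). Without the 2 farthest cows, GLYLC cows 912 and 905, r was 0.64 for *TKT*, 0.60 for *GPI*, 0.66 for *PGD* and 0.45 for *TPI1*. The NRF2 score was related to *PGD* (r = 0.82, rho = 0.71, permutation p = 1e-05, adjusted 0.00045), *PGK1* (r = 0.73, rho = 0.63, adjusted permutation p = 0.00054) and *ENO1* (r = 0.73, rho = 0.71, adjusted permutation p = 0.00054). *TPI1* (r = 0.58) and *TKT* (r = 0.57) followed, with adjusted permutation p of 0.00945 and 0.0132. Without CONLC cow 260 and CONHC cow 7 these were 0.71 for *PGD*, 0.62 for *PGK1*, 0.65 for *ENO1*, 0.52 for *TPI1* and 0.49 for *TKT*. *GPI* was related to the NRF2 score by rank (rho = 0.58, adjusted permutation p = 0.0107, r = 0.40). *PFKL* and *TALDO1* had no relation with an adjusted p under 0.1 to either score, and neither had *PKLR*. By rank, *PFKL* was inversely related to the stellate cell and fibroblast score (rho = -0.53, adjusted permutation p = 0.0327, r = -0.38). *PKLR* had r = 0.55 with the hepatocyte score (adjusted permutation p = 0.0653), which was 0.08 without GLYLC cow 912 and CONLC cow 260. With the macrophage score it had r = 0.42 and rho = 0.40 (adjusted permutation p = 0.163 and 0.270), r = 0.50 without CONHC cows 123 and 134, and r = 0.26 centred on the groups. Hypoxia response, to which *PGK1* and *ENO1* belong in many cells, had r between -0.30 and 0.01 with the 9 members.

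Of the same NRF2 list, 4 of 8 genes (against 13.7% of all genes) had an unadjusted p under 0.05 in HC against LC, all lower in HC and 0 called, with *NQO1* at -0.28 ± 0.11 (edgeR adjusted p = 0.234) and *TXNRD1* at -0.23 ± 0.10 (adjusted p = 0.313). *SRXN1* had -0.40 ± 0.19 (adjusted p = 0.336), and *SLC7A11*, with group means of at most 2.13 normalized reads, had -1.87 ± 0.69. In the lipogenesis list 2 of 11 had one (18.2%, against 13.7% of all genes), both lower, and 10 of 11 estimates were below 0. Of the 11 hypoxia genes, *BHLHE40* was at 0.36 ± 0.14, *VEGFA* at -0.12 ± 0.05 and *CA9* at -1.71 ± 0.59, each with an unadjusted p under 0.05 and none called.

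Over all genes with a symbol and a mean log2 CPM above 1, the 3 most similar profiles to each member over the 31 cows were listed by Pearson r. *TKT* was most like *TMEM97* (r = 0.82), *SCD*, the stearoyl-CoA desaturase of the lipogenesis list (0.82), and *CBR1* (0.81). *GPI* was most like *ZFYVE19* (0.84), *CBR1* (0.81) and *TKT* (0.80), and *PGD* like *NQO1* of the NRF2 list (0.80), *BLVRB* (0.80) and *TKT* (0.77). *PGK1* was nearest to *TXN*, thioredoxin (0.86), *MDH1* (0.84) and *AK3* (0.84), *ENO1* to *ATP5MPL* (0.84), *COX6A1* (0.84) and *IP6K3* (0.83), and *TPI1* to *COX5A* (0.80), *RTN2* (0.77) and *VDAC3* (0.76). *TALDO1* was nearest to *MPST* (0.82), *CLTB* (0.82) and *LSM7* (0.82), and *PFKL* to *NR1H2* (0.86), *IFRD2* (0.85) and *FAM234A* (0.85). Without the 2 farthest cows these 24 values stayed between 0.63 and 0.86. For *PKLR* the nearest were *POLA2* (0.78), *PSAT1* (0.75) and *NUGGC* (0.75), and these fell to 0.49, 0.37 and 0.49 without the 2 farthest cows.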

How the data were processed

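RNA-seq of 31 liver biopsies in 4 feeding groups was analysed. Per the labels and the methods, the authors trimmed reads (Trim Galore), aligned them with HISAT2 2.1.0 to UMD3.1, used HTSeq 0.8.0 to assign the uniquely mapped reads to genes and deposited raw counts of 24616 genes, 4961 of them without a symbol. Whether counting used the strand is not given in the sources used here. The deposited normalized table was not used. Reads shared with near-identical copies of a gene were left out by the unique mapping.

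Genes with at least 20 reads over all cows (15916) were tested with edgeR 4.0.16 in R 4.3.3 (TMM scaling, quasi-likelihood test, 1 model of 4 groups, and additive models for HC versus LC and GLY versus CON). Correlations used log2 CPM (prior count 2) and permutation tests in Python 3.11.15 (scipy 1.17.1, statsmodels 0.14.6). Scores are means of log2 CPM centred on each gene's median. No 2 cows of a group agreed within sampling noise (chi-square per gene 24.5 to 487 over 105 pairs). The steps were tested on simulated data. Alternatives were RLE scaling, no filter, DESeq2 1.42.0, fits of the 2 compared groups, other correlation settings and each cow left out. The muscle list and the fit without 4 libraries were added after the data were seen.

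The members, lists and tests were chosen with earlier results of these data known. Named were the members, list genes called or with a p under 0.05 in HC versus LC (at most 4 per list), enzymes of the members' steps, and the 3 genes most like each member. Of the genes that this rule covers, some are not reported here. Positions and sequences of the members are left out because an annotation of that build was not used here.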

Additional observations from a re-analysis of the deposited data

Results flagged for a closer look

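In GLYHC, *TPI1* of cow 131 (3053 normalized reads) stood apart from the other 7 cows, of which the nearest had 2332, by a gap test at the 95% level. In GLYLC, *TPI1* of cow 209 (3484 normalized reads) stood apart from the other 6 cows, of which the nearest had 2170, by the same test. These were 2 of 36 combinations of a member and a group, and chance flags about 1 in 20, which gives 1.8. Cow 131 was also the highest of its group for *GPI*, *PGD*, *PGK1* and *ENO1*, but the lowest for *TALDO1* (936) and *PFKL* (419). Cow 209 was the highest of its group for *TALDO1*, *PGD*, *PGK1* and *ENO1*.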

How the results depend on the processing

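Members called stayed at 0 or 1 in all 7 comparisons under RLE scaling and DESeq2 on all cows. Exceptions elsewhere were 4 members between CONHC and CONLC with DESeq2 on only these groups, and 0 instead of 1 in HC against LC without a filter or without the 4 libraries with muscle reads. Leaving out 1 cow gave 0 to 1 members called in HC against LC and 0 to 1 between GLYLC and CONLC, and 0 in the other 5. The call of *PKLR* was kept only without GLYHC cows 37 and 117, GLYLC cows 102, 544, 905 and 912, CONHC cow 144, and CONLC cows 169 and 260, and was lost in 22 cases with adjusted p up to 0.145. The cause was not tested. Of all genes, DESeq2 on all cows called 27 between CONHC and CONLC, 143 between GLYHC and GLYLC, 4 between GLYLC and CONLC, 434 in HC against LC, 1 in GLY against CON and 1 in the interaction, and on only the 2 compared groups it called 81, 87 and 2 in the first 3 of these and 5 between GLYHC and CONHC. The edgeR counts in the same order were 0, 32, 10, 231, 0 and 0, with 0 between GLYHC and CONHC. RLE scaling gave 66 between GLYHC and GLYLC, no filter gave 134 in HC against LC, and edgeR on only 2 groups gave 0 between GLYHC and GLYLC and 0 between GLYLC and CONLC. Without the 4 libraries with muscle reads 3, 0, 0 and 44 genes were called between CONHC and CONLC, GLYHC and GLYLC, GLYLC and CONLC, and in HC against LC. With 1 cow left out the counts ran from 0 to 7 between CONHC and CONLC, 0 to 150 between GLYHC and GLYLC (highest without GLYLC cow 147), 0 to 1 between GLYHC and CONHC, 0 to 41 between GLYLC and CONLC, 83 to 404 in HC against LC, 0 to 6 in GLY against CON and stayed at 0 in the interaction. The median r over 36 pairs was 0.29 to 0.38 with 1 cow left out, 0.30 without the muscle libraries and 0.31 by Spearman. No paired analysis was possible because the animal numbers are unique to each cow.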
